A study of Homo sapiens with 4 samples.

Results

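The 10 genes described here are regulators and markers of the epithelial-mesenchymal transition (EMT), namely SNAI1, SNAI2, ZEB1, ZEB2, TWIST1, TWIST2, VIM, ESRP1, ESRP2, and GRHL2. They were chosen by their symbols among the 20372 genes of the deposited count table, by a rule that names no measured value. Earlier results of these data were known when the set was chosen. In the table, 10 of 10 symbols were found. RNA was sequenced from TPC1 cells, an established line of human papillary thyroid carcinoma that expresses the CCDC6-RET fusion, after 6 h or 24 h of the RET inhibitor BLU6864. All 4 libraries, 2 per time point, therefore come from inhibitor-treated cells of a single cell line, and no vehicle library was among them. The methods describe TPC1 culture in serum for other assays and name no medium for the RNA sequencing. The labels give a dose of 100 µM and single-end reads of 50 bp, whereas the methods give 100 nM and paired-end reads. The comparison asks how the EMT regulators differed between the early and the late response to RET inhibition. The effect of the inhibitor cannot be told apart from that of time in culture, and the 24 h libraries alone carry a label of re-analysis.

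EMT is the conversion of an epithelial cell, which adheres to its neighbours, into a motile mesenchymal cell. The zinc finger proteins SNAI1 and SNAI2, the zinc finger homeobox proteins ZEB1 and ZEB2, and the basic helix-loop-helix proteins TWIST1 and TWIST2 are transcription factors that drive it, mostly by repressing epithelial genes such as that of E-cadherin. VIM encodes vimentin, the intermediate filament of mesenchymal cells and of many carcinoma lines. On the epithelial side, ESRP1 and ESRP2 direct epithelial splicing, and GRHL2 activates epithelial junction genes. ERK signaling downstream of receptor tyrosine kinases such as RET is among the known inputs to several of the EMT factors.

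The libraries held between 23917056 and 27457040 counts. The labels do not say whether the 2 libraries of a time point come from separate cultures, so P values measure only the spread between these libraries. They were not one library deposited in duplicate, since the chi-square per degree of freedom between them was 10.0 at 6 h and 7.65 at 24 h. Normalized counts are raw counts scaled by the TMM method to the mean library, and log2 fold changes are of 24 h over 6 h. A gene was called higher or lower if its log2 fold change exceeded 0.5 in size and its unadjusted P from edgeR's quasi-likelihood test was under 0.01. In bulk RNA, fewer cells that express a gene and less of its RNA per cell cannot be told apart.

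The 6 EMT factors of the set split by pair of paralogs. SNAI1 and SNAI2 were higher at 24 h, ZEB1, ZEB2, TWIST1, and TWIST2 were lower, and VIM was not called in either direction. Among the 10 genes, 7 had enough counts to be tested, and ESRP1, ESRP2, and GRHL2 did not. Of the 7 tested, 2 (28.6%) were called higher, against 17.4% of all 12876 genes tested, and 4 (57.1%) were called lower, against 17.7% of all genes. Their median log2 fold change was -0.58, compared with 0.0029 over all genes tested. The 24 h libraries did not overlap the 6 h libraries in 6 of the 7 genes, a state found in 81.8% of all genes tested, and lay above them in 2 (41.0% of all genes) and below them in 4 (40.8%). These 6 genes also had a Benjamini-Hochberg adjusted P under 0.05, as did 65.6% of all genes tested, 33.0% higher and 32.6% lower.

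**Figure D1:**
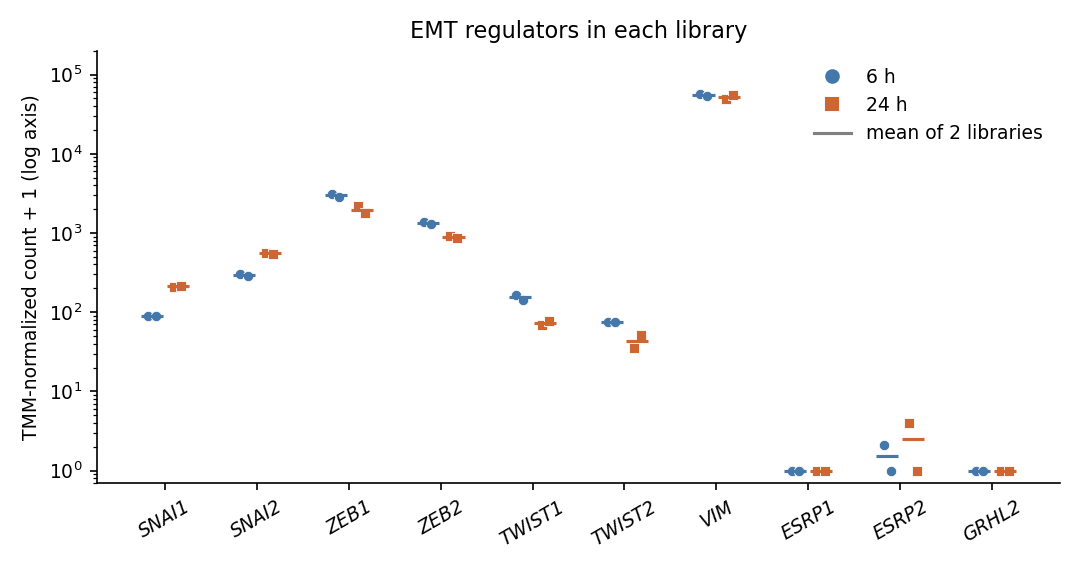
TMM-normalized counts plus 1, on a log axis, of the 10 EMT regulators in each of the 2 libraries at 6 h (circles) and at 24 h (squares), with the mean of each time point as a line. The points of SNAI1 and SNAI2 lie higher at 24 h, those of ZEB1, ZEB2, TWIST1, and TWIST2 lie lower, those of VIM overlap, and ESRP1 and GRHL2 had no count.

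SNAI1 (ENSG00000124216, hg19 chr20:48599536-48605423) encodes SNAIL, a short-lived repressor that binds E-boxes in epithelial promoters. It had 81 and 93 raw counts at 6 h and 207 and 222 at 24 h. Both 24 h libraries lay far above both 6 h libraries, and the libraries of a time point were close to each other. The normalized count rose from 88.3 ± 1.26 (SD, n = 2) to 211 ± 6.93, 2.39-fold higher at 24 h. The log2 fold change was 1.26 with a standard error of 0.145 and a 95% interval from 0.96 to 1.55. The Benjamini-Hochberg adjusted P of edgeR was 2.40e-08. Its rank among all 12876 genes tested was 614, counted from the largest rise.

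SNAI2 (ENSG00000019549, hg19 chr8:49830249-49834299) encodes SLUG, a close relative of SNAIL with the same kind of DNA-binding zinc fingers. Its raw counts were 281 and 296 at 6 h and 561 and 558 at 24 h, again without overlap. The mean normalized count rose from 294 ± 13.7 (SD, n = 2) to 551 ± 11.2, 1.88-fold higher at 24 h. On the log2 scale the change was 0.91 (standard error 0.0979, edgeR adjusted P = 6.87e-09), and its 95% interval from 0.71 to 1.11 overlaps that of SNAI1.

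Within the pair, SNAI1 made up 22.4% and 23.9% of the counts of the pair at 6 h and 26.95% and 28.5% at 24 h, and the 95% Wilson intervals of the 4 libraries overlapped. Wilson intervals here cover counting error only.

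ZEB1 (ENSG00000148516, hg19 chr10:31607424-31818742) and ZEB2 (ENSG00000169554, hg19 chr2:145141648-145282147) encode large repressors with zinc finger clusters at both ends. They are known for a double-negative loop with the miR-200 family, in which the microRNAs bind the 3′ UTRs of both mRNAs and both proteins repress the microRNA genes. The microRNAs were not analysed here. Their mature sequences from RefSeq (GRCh38.p14), with the seed of bases 2 to 8 in capitals, are shown because the 5 members carry 2 seeds that differ at a single base.
hsa-miR-200b-3p: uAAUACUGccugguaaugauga
hsa-miR-200c-3p: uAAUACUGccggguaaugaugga
hsa-miR-429: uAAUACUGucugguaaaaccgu
hsa-miR-200a-3p: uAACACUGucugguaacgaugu
hsa-miR-141-3p: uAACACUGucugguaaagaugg

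The reverse complement of the first seed, shared by miR-200b, miR-200c, and miR-429, is CAGTATT, and that of the second, shared by miR-200a and miR-141, is CAGTGTT. On the transcript strand of the GENCODE v44 canonical 3′ UTRs, ZEB1 held 9 matches in 2.54 kb, 6 to the first seed and 3 to the second. ZEB2 held 9 matches in 5.37 kb, 5 to the first and 4 to the second. This is 3.54 matches per kb in ZEB1 and 1.68 in ZEB2, compared with 0.254 over all 18817 canonical 3′ UTRs, of which 28.9% held any match. Among the 2946 UTRs within 25% of its length, ZEB1 included, 0.0339% held as many matches as ZEB1, and the share for ZEB2 was 0.135% of 1484. SNAI1, TWIST1, TWIST2, VIM, and ESRP2 held 0 matches, SNAI2 and GRHL2 held 1 each, and ESRP1 held 2. A match is a stretch of letters, and binding was not measured. A site for each seed in each gene is given on the transcript strand, with the seed match in capitals, the first at GRCh38 chr10:31527621-31527642 (+), the second at chr10:31528785-31528806 (+), the third at chr2:144389050-144389071 (-), and the fourth at chr2:144389234-144389255 (-).
ZEB1, first seed: gttttatcttatCAGTATTatc
ZEB1, second seed: gatttgatttaaCAGTGTTatg
ZEB2, first seed: actaccatacatCAGTATTttt
ZEB2, second seed: aaaaattttgtaCAGTGTTaag

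ZEB1 had 2895 and 2968 raw counts at 6 h and 2177 and 1815 at 24 h. After normalization, the 6 h libraries held 3125 and 2847 and the 24 h libraries 2169 and 1766, so the times did not overlap, but the 24 h libraries differed more from each other than the 6 h libraries did. The mean fell from 2986 ± 196 (SD, n = 2) to 1968 ± 285, 1.52-fold higher at 6 h. The log2 fold change was -0.60 with a standard error of 0.0827, a 95% interval from -0.77 to -0.43, and an edgeR adjusted P of 4.70e-07. The call rests on 24 h replicate 2. Without that library the log2 fold change was -0.45, short of the cutoff of 0.5, although the unadjusted P was 2.75e-05.

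ZEB2 had 1257 and 1370 raw counts at 6 h and 922 and 893 at 24 h. The normalized count fell from 1336 ± 30.1 (SD, n = 2) to 894 ± 35.0, with all 24 h values below all 6 h values. The log2 change of -0.58 (standard error 0.0756, edgeR adjusted P = 2.01e-07) had a 95% interval from -0.73 to -0.42, nearly that of ZEB1. Of the 2 ZEB genes, ZEB2 took 30.3% and 31.6% of the counts at 6 h and 29.8% and 33.0% at 24 h, so its share at 24 h lay on both sides of the 6 h shares.

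TWIST1 (ENSG00000122691, hg19 chr7:19060614-19157295) is a basic helix-loop-helix activator and repressor that pairs with E proteins. Its position in the table spans 96.7 kb, although the canonical transcript is 1.63 kb long. It had 150 and 149 raw counts at 6 h and 69 and 79 at 24 h. The normalized count fell from 152 ± 13.4 (SD, n = 2) to 72.8 ± 5.75, 2.09-fold higher at 6 h. TWIST1 had the largest fall among the 7 genes tested, -1.06 on the log2 scale (standard error 0.164, 95% interval from -1.40 to -0.72, edgeR adjusted P = 3.02e-06).

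TWIST2 (ENSG00000233608, hg19 chr2:239756673-239795893) encodes a shorter protein with the same helix-loop-helix domain. It had the fewest counts of the genes tested, 69 and 78 at 6 h and 34 and 52 at 24 h. The normalized count fell from 74.7 ± 0.244 (SD, n = 2) to 42.2 ± 11.8. The times did not overlap, but the 24 h libraries lay apart, at 33.9 and 50.6. The log2 change was -0.82 with a standard error of 0.222, a 95% interval from -1.27 to -0.36, and an edgeR adjusted P of 0.00225. The call was lost with DESeq2, where the log2 fold change was also -0.82 but the unadjusted P was 0.0164, and without 24 h replicate 1, where it was -0.55 with an unadjusted P of 0.0391.

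VIM (ENSG00000026025, hg19 chr10:17270258-17279592) took between 0.188% and 0.222% of the counts of each library. Its raw counts were 53166 and 55884 at 6 h and 49821 and 56661 at 24 h. After normalization, 57393 and 53614 at 6 h stood against 49636 and 55139 at 24 h, and the times overlapped. The log2 fold change was -0.083 (standard error 0.0881, edgeR adjusted P = 0.417). The 95% interval from -0.26 to 0.098 excludes a change as large as the 0.5 cutoff in either direction.

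The epithelial regulators were not detectable at this depth or nearly so. ESRP1 (ENSG00000104413, hg19 chr8:95653302-95719694) and GRHL2 (ENSG00000083307, hg19 chr8:102504660-102681954) had 0 counts in all 4 libraries, which allows up to 3 counts per library, or 0.109 to 0.125 CPM (counts scaled by the library total). ESRP2 (ENSG00000103067, hg19 chr16:68263014-68272005) had 1 and 0 counts at 6 h and 3 and 0 at 24 h, at or under that limit in every library. The position of ESRP2 overlaps that of NFATC3 by 149 bases, so even these counts are uncertain. None of the 3 genes was tested, and no fold is given for them.

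**Figure D2:**
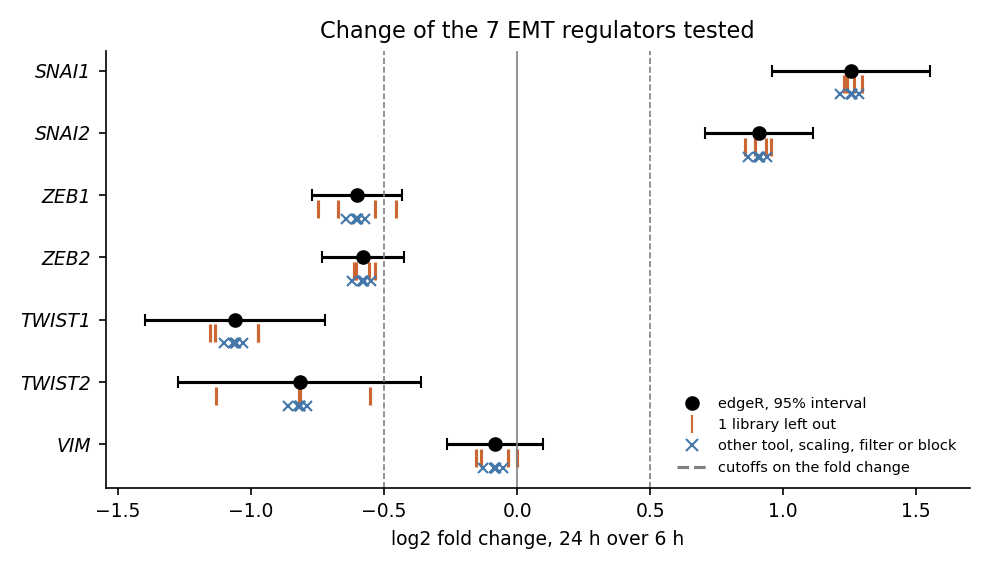
Log2 fold change of 24 h over 6 h for the 7 EMT regulators tested, with the 95% interval of edgeR's quasi-likelihood test (black), the values with 1 library left out (vertical ticks), and those with another tool, scaling, filter, or the replicate block (crosses). Dashed lines mark the cutoffs of 0.5 in either direction, which 1 tick of ZEB1 fails to reach at -0.45, while the interval of VIM includes 0.

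The order of the genes changed between the time points. Levels were compared between genes per kb of canonical transcript, as normalized counts per kb. At 6 h the order was VIM (25768), ZEB1 (503), ZEB2 (144), SNAI2 (135), TWIST1 (93.5), TWIST2 (55.6), and SNAI1 (51.8), so TWIST2 and SNAI1 were the lowest of the 6 factors. At 24 h it was VIM (24321), ZEB1 (331), SNAI2 (253), SNAI1 (124), ZEB2 (96.5), TWIST1 (44.7), and TWIST2 (31.5). SNAI1 and SNAI2 thus stood above ZEB2 and both TWIST genes at 24 h, and ZEB1 stayed the most abundant of the 6 factors. The libraries of neighbours in either order did not overlap, but ZEB2 and SNAI2 were close at 6 h, at 142 to 146 and 130 to 139 per kb. TWIST2 and SNAI1 were about as close at 6 h, at 55.5 to 55.8 and 51.3 to 52.3 per kb. They had only 69 to 93 raw counts per library there, so the order of these 2 is uncertain. These levels assume that the canonical transcript is the one expressed, which was not tested.

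Ratios taken within a library do not depend on the scaling between libraries. The ratio of ZEB2 to SNAI2 per kb was 1.05 and 1.09 at 6 h and 0.387 and 0.377 at 24 h. That of TWIST1 to SNAI1 per kb went from 1.94 and 1.68 to 0.349 and 0.372. Between ZEB1 and SNAI2, the ratio of raw counts was 10.3 and 10.0 at 6 h and 3.88 and 3.25 at 24 h. In each of these 3 ratios, both 24 h libraries were below both 6 h libraries by more than the libraries of a time point differed. Each ratio sets a gene called lower over a gene called higher. Apart from being free of the scaling, its fall repeats those calls and is not separate support.

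The summed counts of the 6 transcription factors were 4733 and 4954 at 6 h and 3970 and 3619 at 24 h. The share of SNAI1 and SNAI2 in this sum was 7.65% and 7.85% at 6 h and 19.3% and 21.6% at 24 h, and the 95% Wilson intervals of the 2 times did not overlap. ZEB1 and ZEB2 together held 87.7% and 87.6% at 6 h and 78.1% and 74.8% at 24 h, also with separate intervals. For TWIST1 and TWIST2 the shares were 4.63% and 4.58% at 6 h and 2.59% and 3.62% at 24 h, and the interval of 24 h replicate 2, from 3.06% to 4.28%, overlapped those of the 6 h libraries. The shares are of counts, not per kb, so they compare libraries and not genes.

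**Figure D3:**
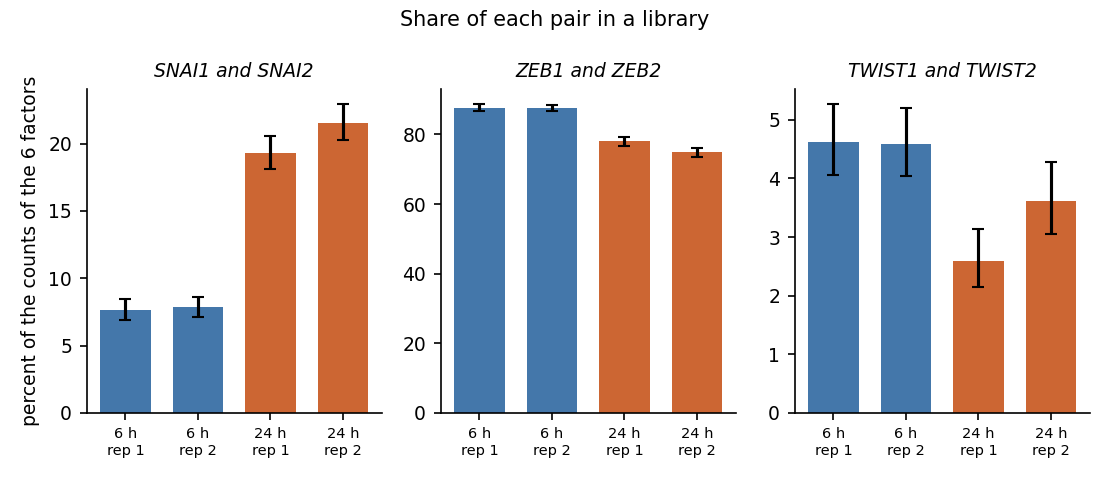
Percent of the summed counts of the 6 transcription factors held by each pair of paralogs in each library, with 95% Wilson intervals for counting error as bars. The y axes start at 0 and differ between panels. The SNAI pair went from 7.65% and 7.85% at 6 h, with intervals that end at 8.44% and 8.63%, to 19.3% and 21.6% at 24 h, and the ZEB pair held most counts at both times.

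Other transcription factors of EMT did not move together. Of a list of 13, 9 were tested, 2 (22.2%) were called higher and 1 (11.1%) lower, against 17.4% and 17.7% of all genes, with a median log2 fold change of -0.25. SOX4, an HMG box factor, rose from 2768 and 2567 to 4187 and 4394 normalized counts (log2 fold change 0.69). FOXQ1, a forkhead factor, fell from 256 and 244 to 76.7 and 62.3 (log2 fold change -1.84). SNAI3, a further SNAI gene, was not called (log2 fold change 0.13). It had few raw counts, 15 and 24 at 6 h and 15 and 29 at 24 h. FOXC2, GSC, KLF8, and PRRX1 had at most 3 counts in every library and are named after their values were seen. Of 4 genes of ID proteins, which sequester the E protein partners of TWIST, 1 was called higher (ID1, log2 fold change 0.53) and 1 lower (ID3, -1.31). The other genes rose but were not called, ID2 by 0.39 (edgeR adjusted P = 3.07e-05) and ID4 by 0.49 (edgeR adjusted P = 0.0603). The median log2 fold change of the 4 was 0.44. ID1 lies close to the cutoff, and with scaling by library size alone 0 of the 4 were called higher.

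The epithelial transcription factors were called lower at 24 h or not called, although ELF3, the most abundant of them, rose. Its normalized counts went from 3020 and 2891 to 4227 and 4107, just short of the cutoff (log2 fold change 0.496, edgeR adjusted P = 8.26e-07). With upper quartile scaling ELF3 was called higher. The summed normalized counts of the list were 3921 and 3804 at 6 h and 4659 and 4507 at 24 h. Of 11 epithelial transcription factors, 7 were tested, 0 were called higher and 3 (42.9%) lower at the stated cutoffs, against 17.4% and 17.7% of all genes, with a median log2 fold change of -0.78. DESeq2 also called 0 higher, whereas edgeR's unadjusted P alone was under 0.05 for 2 higher and 4 lower genes, and its adjusted P for 1 and 4. KLF4, a Krüppel-like factor of differentiating epithelium, fell from 559 and 543 to 151 and 156 normalized counts (log2 fold change -1.84, edgeR adjusted P = 3.76e-14). KLF5 had a log2 fold change of -0.78. OVOL1 had 0 counts in all libraries, and OVOL2 and TP63 had at most 3 in any, named after their values were seen.

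The epithelial adhesion and surface genes, among which are known targets of the SNAI and ZEB repressors, included genes called in each direction, and the share called lower was near that of all genes. Of 36 genes, 27 were tested, 9 (33.3%) were higher and 5 (18.5%) lower, against 17.4% and 17.7% of all genes, with a median log2 fold change of 0.23. CDH1, which encodes E-cadherin (ENSG00000039068), had 8 and 3 raw counts at 6 h and 1 and 3 at 24 h, and EPCAM, an epithelial adhesion molecule, had 11 and 6 at 6 h and 1 and 1 at 24 h. Both were too low to be tested at either time. JUP, the plakoglobin of desmosomes and adherens junctions, rose from 1946 and 1965 to 5087 and 5822 normalized counts (log2 fold change 1.48), and CLDN1, a tight junction claudin, had a log2 fold change of 1.46. CRB3, an apical polarity protein, rose from 17.3 and 21.1 to 104.6 and 93.4 (log2 fold change 2.35). ST14, the membrane protease matriptase, fell from 206 and 207 to 10.96 and 21.4 (log2 fold change -3.66), and KRT19, a keratin of simple epithelia, and ERBB3, a receptor of the EGFR family, had log2 fold changes of -1.59 and -0.79.

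The mesenchymal genes were also split. Of 36, 28 were tested, 10 (35.7%) were higher and 8 (28.6%) lower, against 17.4% and 17.7% of all genes, with a median log2 fold change of 0.11. With DESeq2, 8 were called higher. VCAN, a matrix proteoglycan, rose from 3987 and 3813 to 25680.4 and 31427 normalized counts (log2 fold change 2.87). MMP2, a gelatinase, and LOX, a collagen cross-linking enzyme, had log2 fold changes of 2.06 and 1.07. COL1A1, a chain of type I collagen, PDGFRB, a receptor tyrosine kinase, and NT5E, the surface nucleotidase CD73, fell with log2 fold changes of -1.57, -1.48, and -1.29. CDH2, which encodes N-cadherin, had 1561 and 1488 normalized counts at 6 h and 1883 and 2091 at 24 h, and its log2 change of 0.38 was short of the cutoff (edgeR adjusted P = 5.48e-05). FN1, which encodes fibronectin, changed by less than the cutoff as well (log2 0.37, edgeR adjusted P = 0.00883), and its 24 h libraries lay apart, at 235844 and 333999 against 224207 and 217335 at 6 h.

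**Figure D4:**
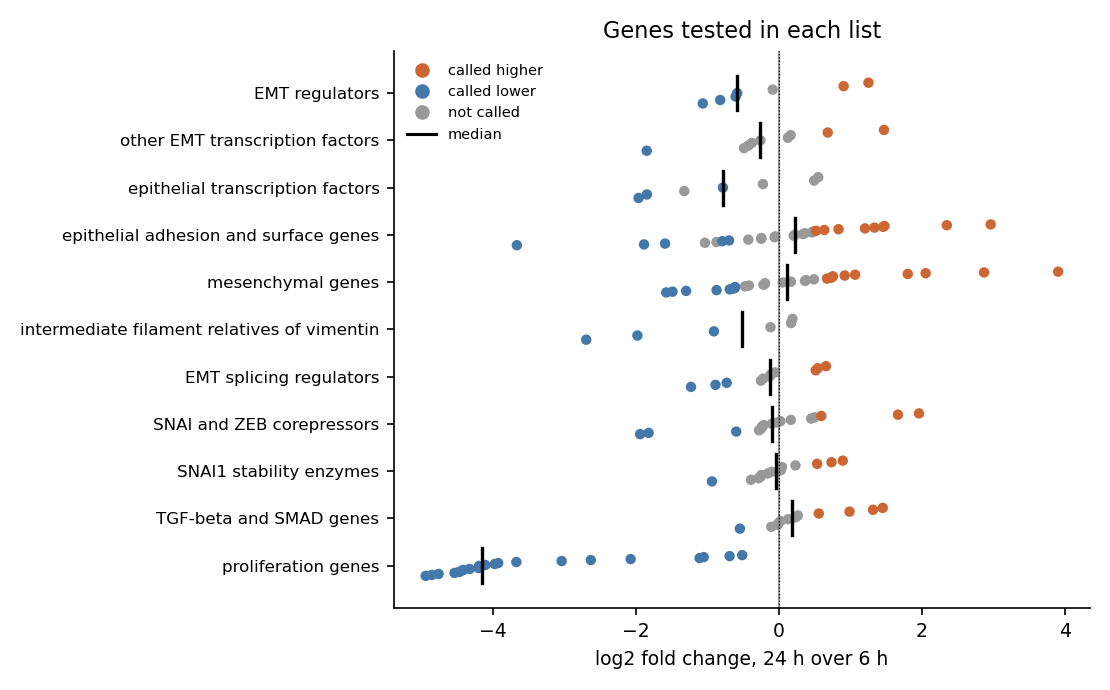
Log2 fold change of 24 h over 6 h of each gene tested in the EMT regulators and in 10 lists of related genes, 1 point per gene, with genes called higher or lower in colour and the median of each list as a black line. The medians lie between -0.78 for the epithelial transcription factors and 0.23 for the epithelial adhesion and surface genes, except that of the proliferation genes at -4.14.

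Relatives of vimentin were measured beside it. The list of 11 other intermediate filament genes in the table leaves out the keratins. Of the 11, 6 were tested, 0 were called higher and 3 (50.0%) lower by edgeR, against 17.4% and 17.7% of all genes. At an unadjusted P under 0.05 alone edgeR also gave 0 higher in this list, as did DESeq2 at the stated cutoffs. This does not hold for keratins, which are intermediate filament genes too. KRT7 was called higher (log2 fold change 0.84), KRT19 lower (-1.59), and KRT18 (0.37) and KRT8 (-0.048) were not called. DES, which encodes desmin, fell from 153 and 159 to 21.9 and 26.3 normalized counts (log2 fold change -2.69). The nuclear lamins LMNB1 and LMNB2 had log2 fold changes of -1.97 and -0.90.

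With ESRP1 and ESRP2 at the limit of detection, other regulators of EMT splicing were examined. Of 12, 11 were tested, 3 (27.3%) were higher and 3 (27.3%) lower, against 17.4% and 17.7% of all genes, with a median log2 fold change of -0.12. QKI, which promotes mesenchymal splicing, was higher with a log2 fold change of 0.52, as were the splicing factors MBNL2 (0.66) and SRSF1 (0.55). QKI was no longer called with scaling by library size alone, at 0.48. MBNL1 fell from 7914 and 7126 to 3304 and 3129 normalized counts (log2 fold change -1.23), and RBM47 and CELF1, further RNA-binding proteins, had log2 fold changes of -0.88 and -0.73. Of 5 genes whose transcripts the ESRP proteins splice, 4 were tested, CTNND1, the p120 catenin, was higher (0.74), and CD44, a hyaluronan receptor, was lower (-0.61). These are counts of whole genes, and isoforms were not measured.

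Partners through which SNAI and ZEB proteins repress were called about as often as all genes. All 17 were tested, 3 (17.6%) were higher and 3 (17.6%) lower, against 17.4% and 17.7% of all genes, and the median log2 fold change was -0.10. AJUBA and WTIP, LIM proteins of a single family that bind SNAIL, rose with log2 fold changes of 1.96 and 1.67, AJUBA from 949 and 1021 to 3727 and 3952 normalized counts. LIMD1 of the same family did not rise and was not called (log2 fold change -0.23). CTBP2, a corepressor bound by ZEB proteins, had a log2 fold change of 0.60. CTBP1 was just short of the cutoff (log2 fold change 0.4997, edgeR adjusted P = 5.74e-07). With upper quartile scaling CTBP1 was called, which made 4 higher. The histone methyltransferases SUV39H1 and EZH2 fell with log2 fold changes of -1.94 and -1.82, and SUZ12, which works in a complex with EZH2, had -0.59. All 3 are chromatin regulators with many other targets.

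Enzymes that set the stability of the SNAIL protein were also all measured, and 3 of 14 (21.4%) were higher and 1 (7.14%) lower, against 17.4% and 17.7% of all genes, with a median log2 fold change of -0.033. LATS2, a kinase of the Hippo pathway, USP27X, a deubiquitinase, and CTDSP1, a phosphatase, had log2 fold changes of 0.90, 0.74, and 0.54, and PSMD14, a subunit of the proteasome lid, had -0.93. USP27X was not called with DESeq2 (unadjusted P = 0.0115), nor was CTDSP1 with library size alone (log2 fold change 0.495), which left 2 higher in each case. SNAIL protein itself was not measured. Among 12 genes of TGF-beta signaling, an inducer of EMT, 4 (33.3%) were higher and 1 (8.33%) lower, against 17.4% and 17.7% of all genes, with a median log2 fold change of 0.19. The ligand TGFB2 rose from 418 and 385 to 1004 and 1194 normalized counts (log2 fold change 1.46). The signal transducer SMAD3 and the inhibitor SMAD7 had log2 fold changes of 1.32 and 0.99, and the receptor TGFBR2 had -0.54.

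Genes of proliferation and markers of cell types moved between the same libraries. All 22 proliferation genes tested were called lower at 24 h, against 17.7% of all genes (median log2 fold change -4.14). MCM6 was not called with upper quartile scaling (-0.48). The summed normalized counts of the list were 86587 and 84622 at 6 h and 9510 and 9383 at 24 h. TTK, a mitotic kinase, had 3164 and 3166 normalized counts at 6 h and 103 and 104 at 24 h. SUV39H1, EZH2, and LMNB1 moved in the same direction as these genes, and so did the ZEB and TWIST genes, while SNAI1 and SNAI2 moved in the opposite one. The part of proliferation in the changes of the EMT regulators was not tested.

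The thyroid label was checked against 8 markers, and markers of other cell types were examined. Calls in these lists stand beside 17.4% of all genes tested called higher and 17.7% called lower. PAX8, a thyroid lineage factor named after its values were seen, had between 19961 and 22045 normalized counts in every library, whereas NKX2-1 and TSHR had 0 counts in all. FOXE1 was higher (log2 fold change 0.84) and TG, which encodes thyroglobulin, lower (-1.09). Of 9 fibroblast markers, 4 were tested, COL1A2 and COL3A1 had 0 counts, and DCN and FAP had at most 3 in any library. COL1A1 and PDGFRB were lower, whereas LUM (42.1 and 38.4 to 70.7 and 64.2 normalized counts) and THY1 (0 and 2.88 to 21.9 and 27.2) were higher, LUM not with DESeq2. The summed normalized counts of the list, mostly COL1A1 and PDGFRB, were 614 and 632 at 6 h and 278 and 321 at 24 h. Of 8 white blood cell markers, 2 were tested. CD14 was higher, at 50.7 and 39.3 normalized counts at 6 h and 84.7 and 88.6 at 24 h, and FCER1G was not called, at 14.0 and 18.2 at 6 h and 6.97 and 10.7 at 24 h. In the rest, CD3E, CD52, LYZ, and TYROBP were at 3 counts or fewer, and the sums of the list, mostly CD14, were 64.3 to 68.0 at 6 h and 98.6 to 101 at 24 h. Of 5 endothelial markers in the table, 2 were tested and both were lower, CDH5 and CLDN5 had at most 3 counts, and the sums of 515 to 549 at 6 h and 28.2 to 54.8 at 24 h were mostly KDR, which had 496 to 524 and 21.4 to 43.8. The part of other cells in the changes of the EMT regulators was not tested.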

How the data were processed

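RNA sequencing libraries of TPC1 cells, 2 after 6 h and 2 after 24 h of BLU6864, were compared. The authors deposited raw counts per gene, with reads aligned to hg19 by STAR (2.3 in the submitters' processing notes). They also deposited a normalized signal, the count divided by 1 DESeq2 size factor per library, which was not tested, and their own fold changes and P values, which were not used. The counting program and its strand setting are not given in the sources used here. The number of unused columns of per-sample values was 0.

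The raw counts entered edgeR 4.0.16 under R 4.3.3 (filterByExpr, TMM, quasi-likelihood test, time as the single factor), and 12876 genes were kept. The cutoffs follow the methods of the study, in both directions. P values were adjusted by Benjamini-Hochberg over all genes tested. Alternatives were DESeq2 1.42.0, other scalings and filters, the replicate block, and each library left out. The script was tested on simulated data with 200 changed genes among 12876. At a log2 fold change of 0.6 in size, edgeR recovered 77.6% of the changed genes and DESeq2 76.1%. At a size of 1, both recovered 100%. Of the unchanged genes, edgeR called 19 and DESeq2 0. The gene set and lists were chosen with earlier results of these data known. From each list, up to 3 called genes per direction with the largest change and a mean normalized count of at least 50 were named, plus CDH1, CDH2, EPCAM, and FN1, and marker genes with at most 3 counts. CTBP1, ELF3, FCER1G, ID2, ID4, KRT7, KRT8, KRT18, LIMD1, MCM6, PAX8, SNAI3, and THY1 were named after their values were seen. A few genes that this rule would name are not reported here. Transcript lengths and 3′ UTRs came from GENCODE v44 canonical transcripts (GRCh38), matched for all 10 genes, and microRNAs from RefSeq. A planned search of promoters for E-boxes was void, since sequences were matched for 4 of 10 regulators and 19 of 36 epithelial genes. Protein sequences were not used here. Figures were made in Python 3.11.15 using matplotlib 3.10.9.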

Additional observations from a re-analysis of the deposited data

How the results depend on the processing

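Of 77 log2 fold changes of the 7 regulators tested, 74 kept their direction and their call, and 0 changed sign. These 77 include the main values of the 7 regulators, called by an adjusted P under 0.05 alone. Those values were not recomputed and could not change sign. ZEB1 was -0.45 without 24 h replicate 2, and TWIST2 was -0.82 with DESeq2 and -0.55 without 24 h replicate 1, all short of a cutoff, so that 3 regulators were lower in place of 4 in each of these fits. With each library left out, where the lone library is assumed to vary like the other time point, the log2 fold change ranged from 1.23 to 1.30 for SNAI1, 0.86 to 0.95 for SNAI2, -0.75 to -0.45 for ZEB1, -0.61 to -0.53 for ZEB2, -1.16 to -0.97 for TWIST1, -1.13 to -0.55 for TWIST2, and -0.15 to -0.0017 for VIM. With an adjusted P under 0.05 and no cutoff on the fold change, 4247 genes were higher and 4196 lower. With library size alone, 2 other EMT transcription factors were lower in place of 1, and 0 ID genes were higher in place of 1. With upper quartile scaling, 1 epithelial transcription factor was higher in place of 0. With DESeq2, 1 endothelial marker was lower and 1 fibroblast marker higher, each in place of 2. Other list counts stayed within 1.5 times, but not always at the same number. The cause of these moves was not tested. The median of all genes was -0.040 with library size alone and 0.033 with upper quartile scaling.

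The replicate numbers occur at both times, but no source says what they mark, and the deviations of same-numbered libraries had a correlation across genes of 0.0844. A fit with a replicate block called 2283 genes higher and 2313 lower. In it the log2 fold change was 1.26 for SNAI1 and -0.61 for ZEB1, and no call of a regulator changed. With 2 libraries per time point the spread is estimated mostly from all genes together, outlying libraries could not be tested for, and TWIST2 and the epithelial regulators are limited by depth.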
